A study of Mus musculus with 6 samples.

Results

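Ribosome footprints were followed on 10 mouse genes whose products line or span the inner nuclear membrane: Lbr, the lamin genes Lmnb1, Lmnb2 and Lmna, the LEM-domain genes Tmpo, Emd and Lemd3, the SUN-domain genes Sun1 and Sun2, and Banf1. They were taken by gene name from a table of 22416 genes, and all 10 were present. Lbr was chosen by its measured FPKM difference between fully grown and metaphase II oocytes, so that difference is described for every gene here and nothing is read from a test of it. The other 9 genes were added because their products share its location or partners. The footprints came from Ribo-lite, a low-input form of ribosome profiling that sequences the mRNA fragments a ribosome shields from nuclease, with 500 oocytes per library. All oocytes were wild type on a C57BL/6 background. They came from 4-week-old females given 5 IU of pregnant mare serum gonadotropin 44 h before collection. The groups were WT_FGO (control, fully grown, still holding the germinal vesicle, which is the oocyte nucleus), WT_MII (control, cultured to metaphase II) and Treat_MII (treated, cultured to metaphase II), with n = 2 libraries each. Labels call the last group treated and say no more. The study's methods give the treatment as BYBX, a ligand that stabilizes folded G-rich RNA (RNA G-quadruplexes, rG4s), and the solvent DMSO for the control oocytes of both stages. The study calls the libraries of a group biological replicates, and the labels do not say whether they came from separate collections of animals, so p-values measure the spread between these libraries. On GRCm38, Lbr lies at chr1:181815335-181843046 on the minus strand with 13 coding exons, Sun1 at chr5:139200637-139249840, Sun2 at chr15:79724070-79742536, Tmpo at chr10:91147571-91181315, Lemd3 at chr10:120923413-120979332, Emd at chrX:74254687-74261548, Banf1 at chr19:5364638-5367168, Lmnb2 at chr10:80901203-80918245 and Lmna at chr3:88480147-88509956.

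The inner nuclear membrane is tied to chromatin by a small set of proteins. LBR spans the membrane several times, binds B-type lamins and heterochromatin protein 1 at its nuclear end, and has a membrane domain of the sterol reductase family. Lamins form the filament meshwork beneath the membrane, LEM-domain proteins bind the DNA-bridging protein BAF (the product of Banf1), and SUN proteins reach across the lumen to couple the nucleus to the cytoskeleton. In the oocyte this envelope is taken apart when meiosis resumes, and a metaphase II egg has no nucleus until pronuclei are built after fertilization.

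The transcripts were first searched for 2 kinds of element that bear on translation in oocytes, in the longest coding transcript of each gene (GENCODE, GRCm38, transcript strand only). A cytoplasmic polyadenylation element, a U-rich site bound by CPEB proteins, was sought as TTTTAT or TTTTAAT in the last 150 bases. Lbr was the only 1 of the 10 genes with a match, while 24.2% of the 12978 tested genes with a 3′ untranslated region of at least 150 bases had one. The Lbr element began 66 bases before the annotated transcript end, upstream of an AATAAA polyadenylation signal at 38 bases. Such a signal (AATAAA or ATTAAA in the last 50 bases) was found in 7 of the 10 genes and in 77.4% of tested genes. A match of this kind is common among tested genes, so its presence in Lbr alone of the 10 is given as a description. The element of Lbr is shown with its flanks because it was the only match in this search, with the motif in capitals (chr1:181815382-181815411, minus strand, 3′ untranslated region):
Lbr: gtgcaagttgtTTTTAATttgatgtttggc

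For the G-quadruplex motif, 4 G runs were required, each 3 bases or longer, separated by 1 to 7 bases. It was absent from the 5′ leader and coding sequence of all 10 genes, where 6.97% and 4.53% of 14825 tested genes had it. In the 3′ untranslated region it was present in Lmnb1, Emd and Sun2, or 3 of 10 genes, beside 10.5% of tested genes. Lbr, which held most of the members' reads, had no match in any region. The matches of Emd (chrX:74257401-74257420, plus strand) and Sun2 (chr15:79724513-79724534 and chr15:79724497-79724511, minus strand) are given because the ligand used in the study binds this kind of fold, with the G runs in capitals. A match in the letters is not a measured rG4.
Emd: GGGGGtGGGGaGGGtaGGGG
Sun2, first: GGGGGctGGGagagaGGGaGGG
Sun2, second: GGGaGGGaGGGaGGG

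Depth was low and differed between the groups. The deposited values were FPKM, that is, footprints scaled to the coding length of the gene and to the reads of the library, and whole reads could be recovered from them for all 10 genes. The libraries held 94309 and 107251 reads in WT_FGO, 164972 and 230907 in WT_MII, and 331304 and 275604 in Treat_MII. Over all 6 libraries Lbr had 1151 reads, Sun1 299, Tmpo 186, Sun2 100, Banf1 92, Lemd3 71, Lmnb1 45, Lmna 39, Lmnb2 19 and Emd 11. The oocyte label was borne out by its markers, since all 11 oocyte genes examined were detected and their summed level lay between 20840 and 59000 FPKM. Markers of granulosa and cumulus cells, the somatic neighbours of the oocyte, were also present, with summed levels of 981 and 2591 FPKM in WT_FGO, 2273 and 433 in WT_MII and 349 and 368 in Treat_MII. Of these 17 markers Tnfaip6 was at 0 in every library. WT_FGO_2 and WT_MII_1 were thus the libraries with the most somatic marker footprints, and Hsd17b1 alone made up 1956 FPKM of the value in WT_MII_1.

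Lbr had no read in either WT_FGO library. A count of 0 allows up to 3 reads, which for this gene is 16.9 FPKM in WT_FGO_1 and 14.9 FPKM in WT_FGO_2. In WT_MII it had 114 and 259 reads, or 368 and 597 FPKM, and in Treat_MII 422 and 356 reads, or 678 and 688 FPKM. Every metaphase II library was therefore far above both fully grown ones, and both treated libraries lay above both controls. Against the WT_FGO limit the mean of WT_MII, 483 ± 162 FPKM (SD, n = 2), was at least 30.3-fold higher, and that of Treat_MII, 683 ± 6.76 FPKM (SD, n = 2), at least 42.9-fold higher. Among all 22416 genes Lbr ranked 292 and 183 in the WT_MII libraries and 166 and 160 in the Treat_MII libraries. None of the 28-base words of its coding sequence occurred in that of another gene. Each library pools 500 oocytes and no matched mRNA measurement was used, so fewer oocytes with Lbr footprints cannot be told apart from fewer footprints per oocyte, nor more mRNA from more ribosomes on each mRNA.

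**Figure D1:**
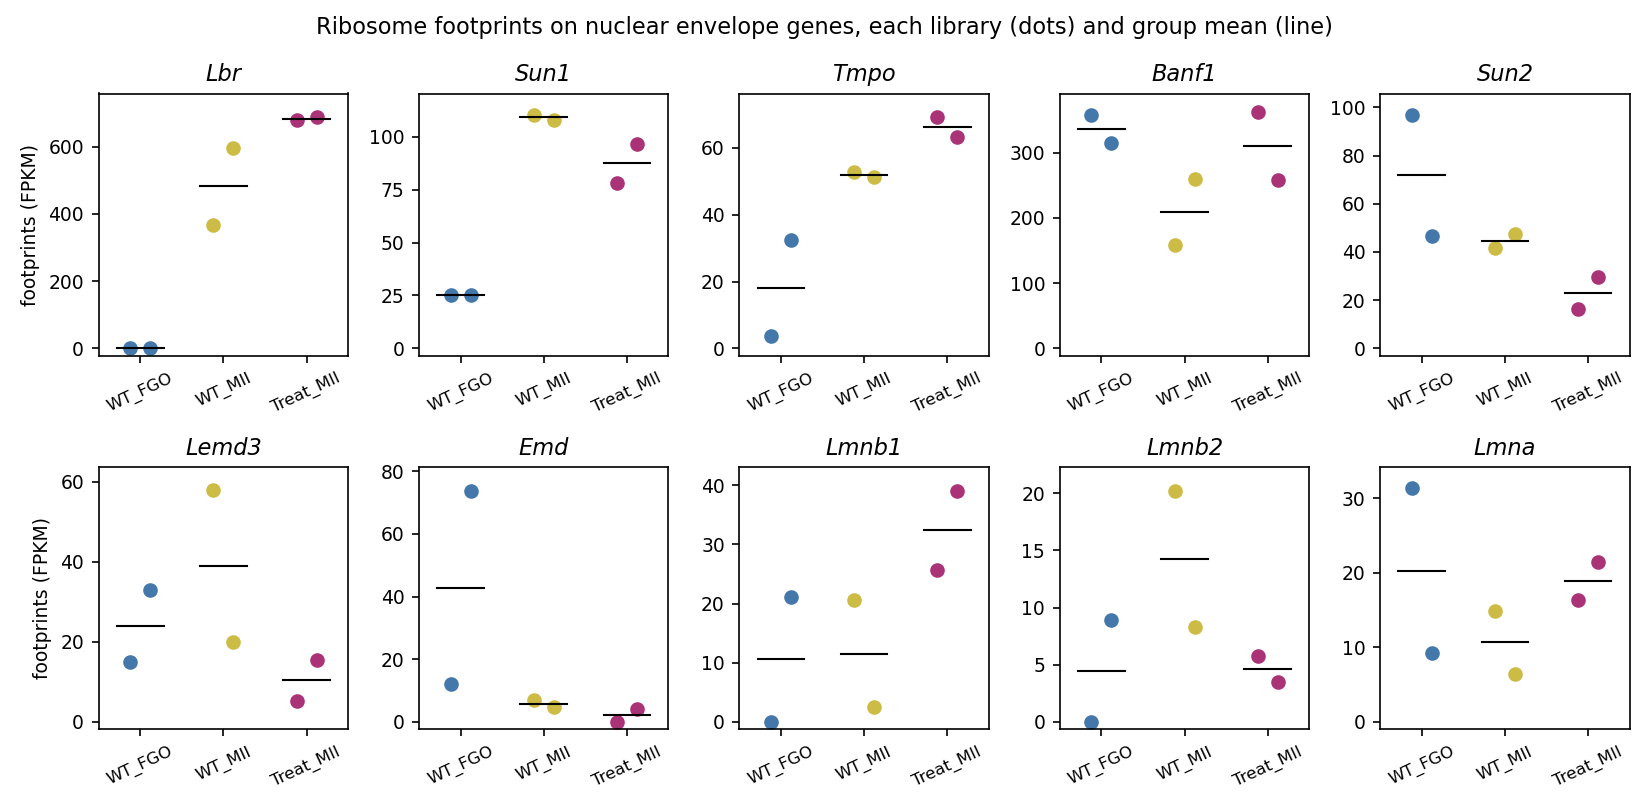
Footprints in FPKM (vertical axis, starting at 0 and scaled for each gene) in the 3 groups (horizontal axis) for the 10 genes, with a dot for each library and a line at the group mean. Lbr is at 0 in both WT_FGO libraries and between 368 and 688 FPKM in the 4 metaphase II libraries, while no lamin gene exceeds 39.1 FPKM in any library.

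The treatment difference of Lbr was 0.54 ± 0.44 (SE) on the log2(FPKM + 1) scale, with a 95% interval from -0.52 to 1.60 and an adjusted p of 0.931 in limma. Its size depended on the control library, being 0.19 without WT_MII_1 and 0.89 without WT_MII_2. The WT_MII libraries of this test are also those through which Lbr was chosen. With n = 2 libraries a group, this fit could not tell a treatment difference of this size from 0.

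The share of Lbr in the group's footprints differed between the stages, which restates the difference through which Lbr was chosen. Its share of the 10 genes' summed FPKM was 0% in both WT_FGO libraries, 43.2% and 54.0% in WT_MII, and 53.9% and 56.4% in Treat_MII. The sum over the other 9 genes averaged 553 ± 16.6 FPKM (SD, n = 2) over the WT_FGO libraries, 496 ± 17.0 over WT_MII and 555 ± 33.8 over Treat_MII. Without Lbr the group means of the sum thus lay between 496 and 555 FPKM, while the order of the genes differed between the stages. Banf1 was highest in WT_FGO, ahead of Sun2, and no other neighbours in that order were separated by both libraries. In WT_MII the order of the means ran Lbr, Banf1, Sun1, Tmpo and Sun2, each above the next in both libraries. Lemd3, with a lower mean, was above Tmpo and Sun2 in WT_MII_1. The first 4 places were the same in Treat_MII, again without overlap between neighbours.

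**Figure D2:**
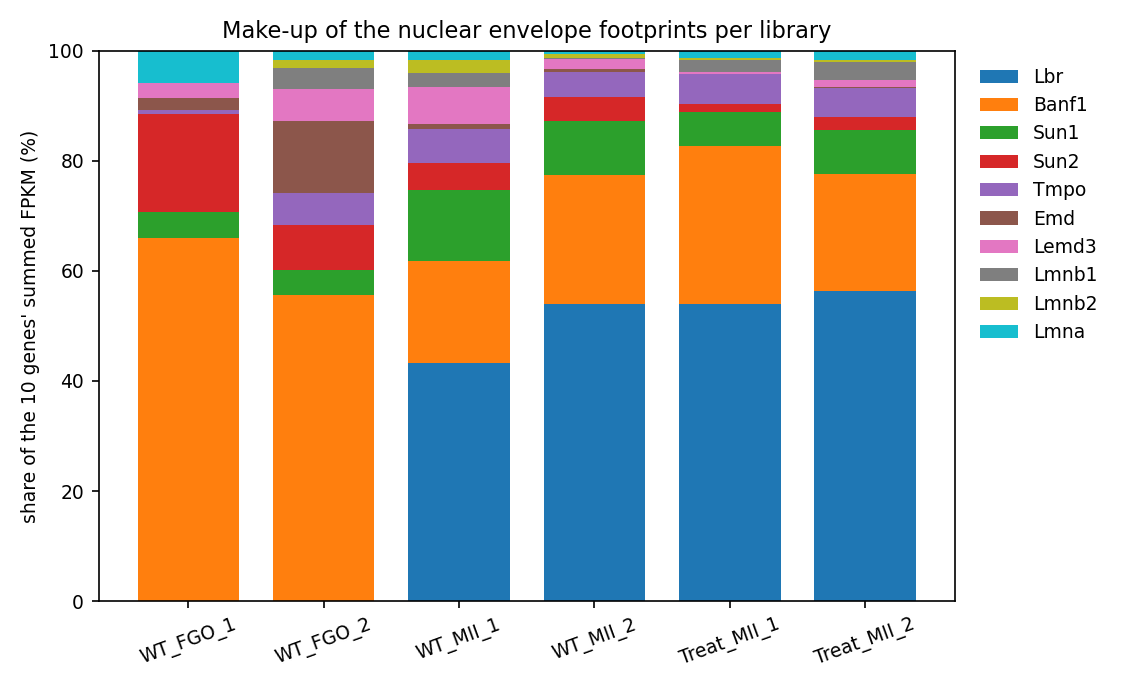
Share of each gene in the summed FPKM of the 10 genes (vertical axis, percent) in each of the 6 libraries (horizontal axis). Banf1 takes 66.1% and 55.7% in the WT_FGO libraries and Lbr is at 0%, whereas Lbr is the largest part in all 4 metaphase II libraries.

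Sun1 and Sun2 encode the inner-membrane components of the LINC complex, and their balance differed between stages. Sun1 had 7 and 8 reads in WT_FGO (25.02 and 25.15 FPKM), 54 and 74 in WT_MII (110 and 108 FPKM), and 77 and 79 in Treat_MII (78.4 and 96.6 FPKM). Both WT_MII libraries were above all others and both WT_FGO libraries below. The mean of WT_MII was 4.35 times that of WT_FGO, a difference of 2.08 ± 0.41 (SE) on the log2(FPKM + 1) scale, given as a description. Sun2 had 20 and 11 reads in WT_FGO (96.7 and 46.8 FPKM), 15 and 24 in WT_MII (41.5 and 47.4 FPKM), and 12 and 18 in Treat_MII (16.5 and 29.8 FPKM). WT_FGO and WT_MII overlapped for Sun2, and both treated libraries lay below every other one.

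The ratio of Sun1 to Sun2, both per kilobase of coding sequence, came to 0.259 and 0.538 for the WT_FGO libraries, 2.66 and 2.28 for WT_MII, and 4.74 and 3.24 for Treat_MII. Sun2 was thus the higher of the pair in both fully grown libraries and Sun1 in all 4 metaphase II libraries. The treated ratios lay above both control ratios, but 2 libraries against 2 cannot give an exact permutation p (two-sided) under 0.333, which is the value obtained. This ratio was chosen after its values were seen. Taken singly, the treatment difference was -0.32 ± 0.41 (SE, 95% interval -1.31 to 0.67) for Sun1 and -0.97 ± 0.59 (SE, 95% interval -2.40 to 0.47) for Sun2, with adjusted p of 0.982 and 0.931 in limma.

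**Figure D3:**
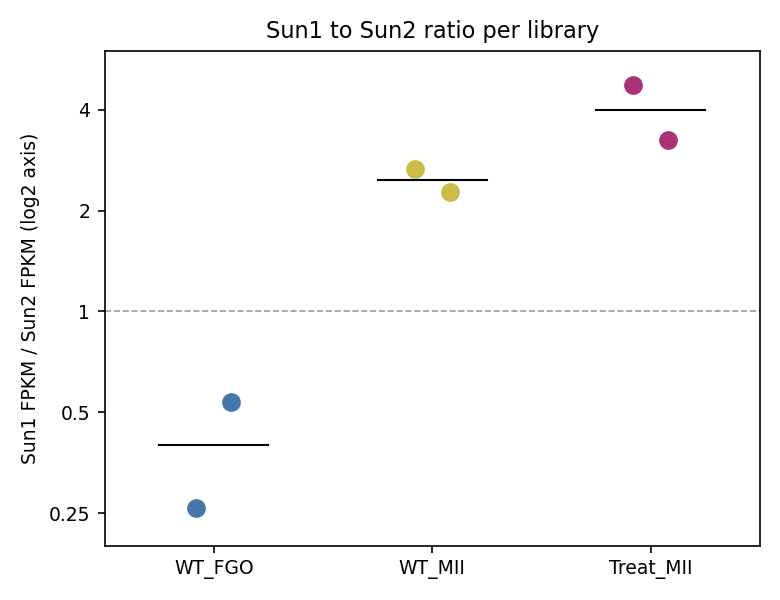
Ratio of Sun1 FPKM to Sun2 FPKM (vertical axis, log2 spacing) in each library of the 3 groups (horizontal axis), with a line at the group mean and a dashed line at 1. The WT_FGO libraries lie under 1 and the 4 metaphase II libraries between 2.28 and 4.74.

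The estimated differences of the 3 LEM-domain genes were not all in the same direction, but none of these genes was called in the main fit. Tmpo, which encodes the LAP2 proteins, had 1 and 10 reads in WT_FGO (3.69 and 32.5 FPKM), 25 and 34 in WT_MII (52.7 and 51.3 FPKM), and 66 and 50 in Treat_MII (69.3 and 63.1 FPKM). Its groups did not overlap and were ordered WT_FGO, WT_MII, Treat_MII, although the WT_FGO libraries differed widely. Tmpo differed by 2.08 between WT_MII and WT_FGO on the log2 scale, by 0.66 without WT_FGO_1 and by 3.50 without WT_FGO_2. Its treatment difference was 0.34 ± 0.94 (SE, adjusted p 1.0 in limma).

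Emd, the gene of emerin, had the fewest reads of the 10, although its level per length was the third highest in WT_FGO. It had 1 and 7 reads in WT_FGO (11.98 and 73.7 FPKM), 1 in each WT_MII library (6.85 and 4.89 FPKM), and 0 and 1 in Treat_MII (0 and 4.10 FPKM). Pooled over libraries, the rate in WT_FGO was 7.86 times that in WT_MII, with a counting interval from 1.57 to 75.9 (95%, exact), but 7 of the 8 reads came from WT_FGO_2. Control and treated metaphase II oocytes, with 2 reads and 1 read, could not be told apart for Emd at this depth (-1.59 ± 1.25 SE, 95% interval -4.65 to 1.46, adjusted p 0.931 in limma).

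Lemd3, which encodes the SMAD-binding protein MAN1, had 4 and 10 reads in WT_FGO (15.04 and 33.1 FPKM), 27 and 13 in WT_MII (58.0 and 19.96 FPKM), and 5 and 12 in Treat_MII (5.35 and 15.4 FPKM). Both treated libraries lay below both controls, and WT_MII_1 stood far above the rest. This was the lowest treatment difference of the group, -1.78 ± 0.86 (SE, 95% interval -3.89 to 0.32), with an unadjusted p of 0.0839 and an adjusted p of 0.931 in limma. It was -1.04 without WT_MII_1 and -2.53 without WT_MII_2. In FPKM, Tmpo, Emd, Lemd3, Lmnb1 and Lmnb2 were higher in WT_FGO_2 than in WT_FGO_1, while Sun2, Lmna and Banf1 were lower. Sun1 was nearly equal in the WT_FGO libraries and Lbr had no read there. WT_MII_1 was above WT_MII_2 for Lemd3 and all 3 lamin genes, slightly for Tmpo and Sun1, and for Emd on 1 read in each. It was below WT_MII_2 for Lbr, Sun2 and Banf1. WT_FGO_2 and WT_MII_1 were also the libraries with the higher granulosa marker level at their stage, and the part of somatic RNA in these values was not tested.

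Banf1 encodes the small DNA-bridging protein that recruits LEM-domain proteins to chromatin. It had 9 reads in each WT_FGO library (357 and 314 FPKM), 7 and 16 in WT_MII (159 and 260 FPKM), and 32 and 19 in Treat_MII (362 and 258 FPKM). Both WT_MII libraries lay below both WT_FGO libraries, and the treated ones overlapped with each of the other groups. The high FPKM rests on few reads because the coding length is only 267 bases. Its coding sequence shares 21.2% of its 28-base words with other genes, the predicted Gm5393 and Gm48017, so part of its level is uncertain. The treatment difference was 0.59 ± 0.36 (SE, 95% interval -0.30 to 1.47, adjusted p 0.931 in limma).

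All 3 lamin genes were low at every stage, at most 39.1 FPKM in any library. Lmnb1, a B-type lamin gene, had 0 and 4 reads in WT_FGO (0 and 21.1 FPKM), 6 and 1 in WT_MII (20.6 and 2.46 FPKM), and 15 and 19 in Treat_MII (25.7 and 39.1 FPKM). Lmnb2, the other B-type gene, had 0 and 2 reads (0 and 8.89 FPKM), then 7 and 4 (20.2 and 8.26 FPKM), then 4 and 2 (5.76 and 3.46 FPKM). Lmna, which encodes the A-type lamins, had 6 and 2 reads (31.3 and 9.17 FPKM), then 5 and 3 (14.9 and 6.39 FPKM), then 11 and 12 (16.3 and 21.4 FPKM). WT_FGO and WT_MII overlapped for all 3 genes. Within WT_FGO and within WT_MII, Lmnb1 and Lmnb2 were higher in the library with more granulosa marker footprints, on at most 7 reads. Of these groups, Lmna was so in WT_MII alone. The granulosa marker sums of Treat_MII were close, at 349 and 368 FPKM. Lmnb1 and Lmna were higher in Treat_MII_2, the library with the larger sum, and Lmnb2 was lower there.

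Between treated and control metaphase II oocytes the lamins diverged in direction without passing the test. Both treated libraries were above both controls for Lmnb1 and Lmna, and below both for Lmnb2. The treatment difference was 1.92 ± 1.64 (SE, 95% interval -2.09 to 5.93) for Lmnb1, -1.35 ± 1.31 (SE, interval -4.54 to 1.84) for Lmnb2 and 0.86 ± 0.84 (SE, interval -1.19 to 2.91) for Lmna. Adjusted p values were 0.938, 0.966 and 0.966 in limma. For Lmnb1 the value was 0.60 without WT_MII_2 and 3.24 without WT_MII_1, so the control libraries, with 6 reads and 1 read, set its size. Lbr had 6.60 and 34.9 times the summed FPKM of the 3 lamin genes in WT_MII, and 14.2 and 10.8 times in Treat_MII.

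Counted over the group, 0 of the 10 genes passed an adjusted p under 0.05 for treatment in limma, beside 0.0% of the 15127 genes tested. At an unadjusted p under 0.05 there were again 0 of 10 in this fit, beside 5.83% of tested genes. Limma with voom weights on the recovered reads also called 0 of 10 by adjusted p. Unadjusted p in limma with voom was under 0.05 for Lbr (0.0129) and Lmnb1 (0.0193), both higher. It was so too for Lemd3 (0.00257) and Sun2 (0.0486), both lower, beside 1469 of the 14545 genes in that fit. The median treatment difference was 0.0090 over the 10 genes and 0 over all tested genes, with 5 of the 10 higher and 5 lower. Treated and control libraries were separated for 9 genes, with the treated ones higher for Lbr, Lmnb1, Lmna and Tmpo, beside 16.2% of tested genes, and lower for Lmnb2, Emd, Lemd3, Sun1 and Sun2, beside 15.6%. Banf1 was the only gene of the group whose libraries overlapped. For Emd the separation rests on 1 read in each WT_MII library and 0 and 1 in Treat_MII. Libraries with 1 read differ in FPKM by depth alone. Over the 7994 genes that reached 11 reads, the total of Emd, these shares were 20.7% and 19.6%. The separated genes were split between both directions, and none of them passed the test.

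**Figure D4:**
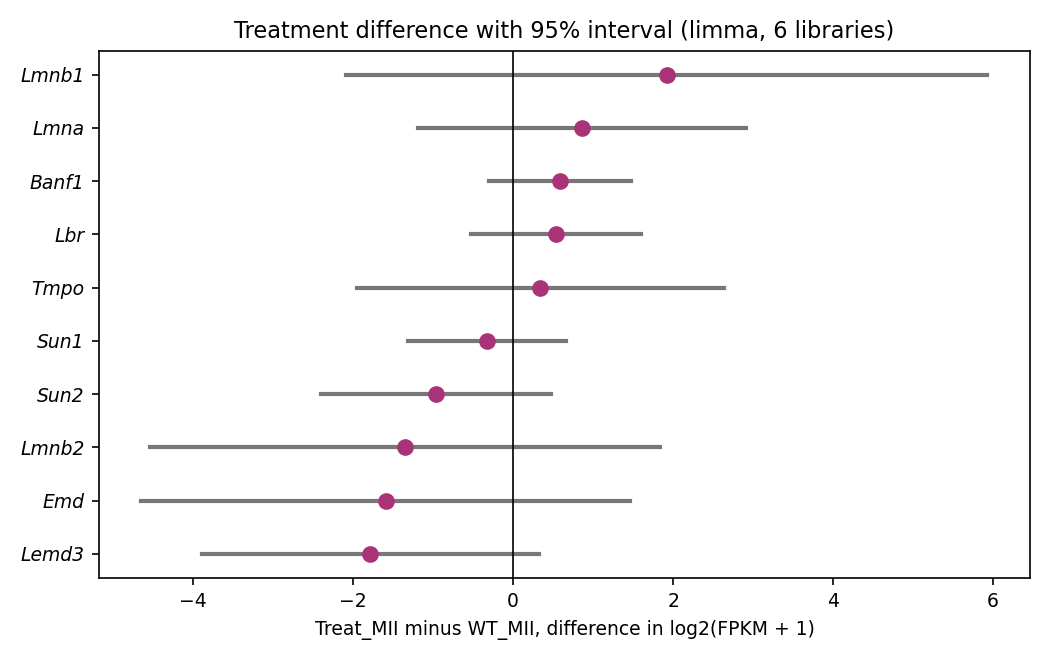
Difference between Treat_MII and WT_MII in log2(FPKM + 1) (horizontal axis) for the 10 genes (vertical axis, ordered by size), with dots for the limma estimate and bars for its 95% interval. Every interval contains 0, and the widest are those of Lmnb1, Lmnb2 and Emd, which had 45, 19 and 11 reads in all.

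For maturation, the contrast through which Lbr was chosen, Lbr and Sun1 had an adjusted p under 0.05, or 2 of 10 genes beside 6.76% of those tested. Both were higher, beside 3.67% of tested genes, and nothing is read from this count. WT_MII and WT_FGO libraries were separated with WT_MII higher for Lbr, Tmpo and Sun1, beside 15.3% of tested genes, and with WT_MII lower for Emd and Banf1, beside 25.8%. For Emd, WT_FGO_1 and each WT_MII library had only 1 read. The median maturation difference was 0.73 over the 10 genes and -0.44 over all tested genes. Treat_MII against WT_FGO shares its fully grown libraries with that contrast. There Lbr alone was called and was higher, beside 3.87% of tested genes called either way and 2.86% called higher, and Lbr, Lmnb1, Tmpo and Sun1 lay above both WT_FGO libraries (16.6%) and Emd and Sun2 below (28.9%). Emd in Treat_MII had 1 read in all, and its pooled rate in WT_FGO was 24.1 times as high, with a counting interval from 3.23 to 1069. That interval leaves out the spread between libraries, and 7 of the 8 WT_FGO reads came from WT_FGO_2. The adjusted p of Emd in this contrast was 0.171 in limma.

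Other genes of the nuclear envelope were read from fixed lists, and none of their 60 tested members was called for treatment. Each list is described by the 2 genes with the highest mean level, and in some lists by genes called for maturation, the latter named after their values were seen. Among 14 tested genes of other LEM-domain and inner nuclear membrane proteins, the median treatment difference was -0.43 with 11 lower, and 1 was called higher at maturation, beside 3.67% of all tested genes. This was Tor1a, the gene of a luminal AAA+ ATPase, with 31.8 and 18.7 FPKM in WT_FGO, 103 and 147 in WT_MII, and 93.7 and 87.2 in Treat_MII (2.29, adjusted p 0.0441 in limma). The WT_FGO values of Tor1a rest on 3 and 2 reads. Nemp2, the highest gene of the list, had 151 and 317 FPKM in WT_FGO, 76.8 and 85.7 in WT_MII, and 100.4 and 91.9 in Treat_MII. The 10 genes in the table from a list linked to the LINC complex, other SUN-domain genes included, were low throughout. Their summed level was 35.9 and 50.8 FPKM in WT_FGO, 64.0 and 32.1 in WT_MII and 14.8 and 18.8 in Treat_MII. Syne3, a nesprin gene, had 14.5 and 22.3 FPKM in WT_FGO, 4.14 and 8.88 in WT_MII and 6.19 and 3.72 in Treat_MII, and Sun5 had 10.2 and 8.93 FPKM in WT_FGO, 23.2 and 0 in WT_MII and 0 in both Treat_MII libraries, on at most 4 reads.

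The 6 lamin processing enzymes had a median treatment difference of 0.44 with 4 higher. Icmt, which methylates the lamin C-terminus, had 24.0 and 126.7 FPKM in WT_FGO, 103 and 123 in WT_MII and 54.7 and 20.6 in Treat_MII, and Pggt1b, a prenyltransferase subunit gene, 60.2 and 113, 39.3 and 42.1, and 66.1 and 70.6 FPKM. Neither passed the test for treatment (adjusted p 0.931 for each in limma). Both treated libraries were below both controls for Icmt and above both for Pggt1b.

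Lbr has a sterol reductase domain, and the list of its chromatin partners and sterol enzymes had a median maturation difference of 0.98 over 12 tested genes, with 7 higher. The median treatment difference of this list was -0.12, with 8 lower. Sc5d, the gene of a sterol desaturase, had 0 and 31.2 FPKM in WT_FGO, 128 and 159 in WT_MII, and 111 and 149.7 in Treat_MII. Its WT_FGO values rest on 0 and 3 reads. Tm7sf2, which encodes the other C14 sterol reductase, was at 0 in 5 libraries and at 2.76 FPKM in Treat_MII_2. Of the heterochromatin protein 1 genes, Cbx1 had 197 and 173 FPKM in WT_FGO, 61.3 and 7.30 in WT_MII, and 56.0 and 48.9 in Treat_MII. For Cbx1, 10.4% of the coding 28-base words occur in other genes. Neither Sc5d nor Cbx1 was called for maturation (adjusted p 0.133 and 0.119 in limma). Cbx3 was listed at 0 in every library, but 94.6% of its coding 28-base words occur in other genes.

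Genes that act in envelope breakdown and reassembly were mostly lower at metaphase II, with a median maturation difference of -1.45 and 16 of 20 tested genes lower. The median over all tested genes was -0.44. Of the 20, 3 were called lower, beside 3.09% of all tested genes. Cdk1, the kinase that drives meiotic resumption, had 452 and 471 FPKM in WT_FGO, 47.6 and 38.9 in WT_MII, and 61.0 and 61.1 in Treat_MII (-3.39, adjusted p 0.00585 in limma). Lpin2, a phosphatidate phosphatase gene, had 77.4 and 152 FPKM in WT_FGO, 2.01 and 0 in WT_MII, and 12.01 and 24.1 in Treat_MII. Its maturation difference, on 1 and 0 reads in WT_MII, was -5.98 (adjusted p 0.0160 in limma). Its treatment difference of 3.38 ± 0.86 (SE) did not pass the test (adjusted p 0.709 in limma). The maturation difference of Ppp2ca, a catalytic subunit of protein phosphatase 2A, was -3.25 (adjusted p 0.0333 in limma), on 1 and 2 reads in WT_MII. Plk1, a mitotic kinase gene, had 152 and 180 FPKM in WT_FGO, 80.4 and 148 in WT_MII and 73.4 and 84.2 in Treat_MII, and 21.4% of its coding words are shared. The median treatment difference of this list was 0.028, with 10 genes higher and 10 lower.

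The genes whose pattern was most like that of Lbr were found by Pearson's r of log2(FPKM + 1) over the 6 libraries, among 2067 genes averaging 50 FPKM or more, predicted genes left out. They were Tcl1, Tcl1b1, Zfp616, Tex19.1 and Wdr47, with r between 0.9996 and 0.9999. These 6 points fall into 2 clusters, the fully grown and the metaphase II libraries, so r chiefly reflects that step, and it is given as a description. Zfp616 and Tex19.1 also had no read in WT_FGO, with 217 and 274 FPKM and 340 and 588 FPKM in WT_MII. Tcl1, an oocyte-expressed coactivator of AKT kinases, was far higher in level than Lbr, with 191 and 182 FPKM in WT_FGO and 6671 and 9006 in WT_MII. In all 5 genes WT_MII_2 was above WT_MII_1, as it was for Lbr, but the choice by likeness used these libraries too.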

How the data were processed

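The deposited values were FPKM, which the authors made per library on mm10. The submitters' processing notes name cutadapt 1.14, Bowtie2 2.2.2 and STAR 2.5.3a. The counting program, the annotation and any handling of molecular identifiers are not given in the sources used here. No spike-in scaling is stated, so every value is relative to its library. The table had 22442 rows, and 26 were dropped because their gene name recurred. FPKM times the union coding length (GENCODE M21, GRCm38) gave whole reads within 0.02 in all libraries for 96.4% of genes, and a floor of 3 reads was used. The exact intervals of pooled reads and the floors cover counting error alone. The limma intervals rest on the spread between libraries.

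The 15127 genes averaging 1 FPKM or more were fitted as log2(FPKM + 1) with limma 3.58.1 in R 4.3.3 (lmFit, eBayes with trend, 3 groups, all 6 libraries). P-values were adjusted by Benjamini-Hochberg over all of them and called under 0.05. This scale understates differences of low genes. The fit was tested on simulated data. Members, lists and tests were chosen with earlier results of these data known. Genes named were the 10 members, the 2 highest of each list and the 5 most like Lbr. Some list genes called for maturation, and Tm7sf2 and Cbx3, were named after their values were seen, and 1 further gene is not reported here. The sequence motifs and the Sun1 to Sun2 ratio were added after the values were seen. Alternatives were a pseudocount of 0.1, other filters (none, 5 FPKM), centring, quantile normalization, a replicate block, only the compared groups, voom on recovered reads, and leaving out each library.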

Additional observations from a re-analysis of the deposited data

How the results depend on the processing

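For treatment the number of members called stayed at 0 under all 14 alternatives, and no member's difference changed sign, which non-overlapping groups fix for 9 of the 10 in the runs without a library. Over all genes the treatment calls went from 0 to 103 with voom and to between 363 and 418 without 1 metaphase II library. For maturation the number of members called, 2, was 1 with the replicate block, 0 when only the groups compared were fitted and 3 with voom on recovered reads, and ranged from 0 to 3 when a library was left out. It was 0 without either Treat_MII library, where no gene of the table was called, and Sun1 was lost without either WT_MII library. For treated against fully grown oocytes the number called, 1, was 2 on centring, 2 after quantile normalization and 5 with voom on recovered reads, and 1 to 3 when a library was left out. The replicate number was not taken as a pairing, because deviations of same-numbered libraries correlated at only 0.0342, 0.0176 and 0.0189, and the block, which took maturation calls over all genes from 1023 to 788, changed no other call among the members. Among the members' maturation and treatment differences, the ones run gene by gene, signs changed for maturation in 3 genes: Lmnb1 was -0.054 with voom and -1.36 to 3.11 when a library was left out, Lmna -1.57 to 0.092 and Lemd3 -0.16 to 1.34. Depth limits Emd and the lamins most, at 11 to 45 reads in all 6 libraries together. The cause of these shifts was not tested.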
